A study of Mus musculus with 15 samples.

Results

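The 38 genes described here encode the proteins that pair, bridge and recombine homologous chromosomes in meiosis, with a few that control entry into meiosis or its progress. They were chosen by name, as mouse gene symbols matched to the Entrez gene IDs of the deposited table, and all 38 were found among its 23510 gene IDs. RNA of mouse testes was sequenced in 15 libraries, 3 in each of 5 groups, and all mice were of the outbred ICR stock. Con is named a control by the labels, and no more was given of its handling. MNC received a lentiviral vector with shNC, the control shRNA, and M1, M3 and M5 received the same vector with shRNAs against the muscarinic acetylcholine receptor of that name, encoded by Chrm1, Chrm3 or Chrm5. Per the study's methods, the virus was injected into the testes of mice 5 weeks of age, 3 shRNAs were made per receptor, and the testes were taken 10 days later. Each library was thus a whole testis, with somatic cells and germ cells of all stages, and in such samples fewer cells of a type and less RNA per cell cannot be told apart. The virus is not restricted by the labels to any cell type of the testis. The values are FPKM, the fragments assigned to a gene scaled by gene length and by how many fragments were mapped in that library, so that levels of different genes can be compared.

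In the first meiotic prophase, homologous chromosomes are aligned and joined along their length by the synaptonemal complex. This protein ladder has lateral elements laid on a cohesin core, transverse filaments of SYCP1 that span the gap, and a central element that stabilises them. At the same time SPO11 cuts the DNA, the meiotic recombinase DMC1 carries broken ends into the homologous chromosome, and some of the joints mature into crossovers that hold the homologues together until they separate. In the testis these steps take place in spermatocytes from the leptotene to the pachytene stage, and males that lack many of these proteins arrest there and are sterile.

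The 15 libraries summed to between 470243 and 513817 FPKM, and their absolute depth is unknown. The Con libraries had the lowest sums, 470243 to 483232 FPKM, against 496090 to 513817 in the injected groups. The targeted transcripts were too low to check the labels, at 0.06 to 0.17 FPKM for Chrm1, 0.01 to 0.11 for Chrm3 and 0.19 to 0.43 for Chrm5 over all libraries. Mean Chrm1 was 0.113 FPKM in M1 and 0.107 in MNC, and mean Chrm3 was 0.077 in M3 and 0.037 in MNC. Mean Chrm5 was 0.32 FPKM in M5 and 0.363 in MNC. These RNA values therefore do not show the knockdowns, which are named by the labels. Some libraries stood apart in values that bear on the results. M3 replicate 3 was above both other M3 libraries in 22 of the 37 meiotic genes tested (59.5%), against 33.7% of all genes tested. M5 replicate 3 had the highest summed levels of the Leydig cell markers (3159 FPKM) and red blood cell markers (491 FPKM) of all libraries, and the lowest of the pachytene markers (2755 FPKM). It also had the highest sums of the markers of Sertoli cells (139 FPKM), macrophages (141 FPKM) and endothelium (5.7 FPKM). M3 replicate 1 had the lowest sum of the Leydig cell markers (658 FPKM), and the next lowest was M1 replicate 1 (1354 FPKM). Con replicate 2 had the lowest summed level of the elongating spermatid markers (11410 FPKM), while the other Con libraries had 16660 and 22090 FPKM. The labels do not say that libraries of a group came from separate mice, so p-values measure the spread between these libraries.

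Differences were computed as log2(FPKM + 1) of one group minus that of the other, a scale that understates changes of genes with low values, and tested with limma across the 14514 genes with a mean of at least 1 FPKM. A gene was called when its Benjamini-Hochberg adjusted p was under 0.05, and rises and falls named here are calls. Of the 38 meiotic genes, 37 passed this filter, while Mei4, which acts in making the breaks, stayed below it at 0.14 to 0.32 FPKM. All values after ± are SDs over 3 libraries.

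The first question was what the M5 knockdown changed relative to its vector control. The transverse filament gene Sycp1 (Entrez ID 20957), the chromosome axis gene Hormad1 (67981) and the strand exchange factor Mnd1 (76915) were higher in M5 than in MNC, and no meiotic gene was called lower. Of all genes tested, 2.76% were called higher and 2.89% lower in M5 in this comparison. The median difference over the 37 genes was 0.13, against 0.025 over all genes, and 25 of the 37 differences were above 0 (67.6%), against 54.5% of all genes.

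SYCP1 forms the filaments that bridge the homologues. Sycp1 was at 46.3, 51.2 and 41.7 FPKM in the 3 MNC libraries and at 78.4, 78.2 and 84.7 in the 3 M5 libraries. Every M5 library was above every MNC library, and the difference was 0.79 (SE 0.085, adjusted p = 0.0125, limma). HORMAD1 coats the axes of chromosomes that are not yet synapsed and promotes break formation. Hormad1 stood at 60.8, 58.2 and 57.9 FPKM in MNC and at 102, 91.3 and 95.0 in M5. Its SD in MNC was 1.57 and in M5 5.52, and no libraries of the groups overlapped. The difference of Hormad1 was 0.69 (SE 0.061, adjusted p = 0.00634, limma). MND1 is the partner of HOP2, the product of Psmc3ip, and the pair stimulates DMC1. Mnd1 was at a low level, 3.35, 4.16 and 3.02 FPKM in MNC and 6.67, 5.26 and 6.36 in M5. Its difference was 0.66 (SE 0.14, adjusted p = 0.0484, limma). Sycp1 was not called without M5 replicate 2 (0.81, adjusted p = 0.0671, limma), and Mnd1 was not called when any 1 of the 6 libraries was left out (adjusted p from 0.0705 to 0.153, limma). Hormad1 was called whichever library was left out.

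Further genes did not pass the test of this comparison and are given by their levels. Smc1b, the meiotic form of an SMC subunit of the cohesin ring, was at 58.5, 70.3 and 48.7 FPKM in MNC and at 86.7, 78.7 and 85.3 in M5. Tex11, an X-linked gene needed for crossovers, was at 6.99, 5.34 and 5.20 FPKM in MNC and 7.80, 7.75 and 8.20 in M5. Psmc3ip was at 74.3, 116 and 81.4 FPKM in MNC and 120.3, 149 and 133 in M5. In all 3 genes each M5 library was above each MNC library, as it was for 13 of the 37 genes, and 4 genes were lower in each. Over all genes tested 16.6% were higher in each M5 library and 15.5% were lower.

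**Figure D1:**
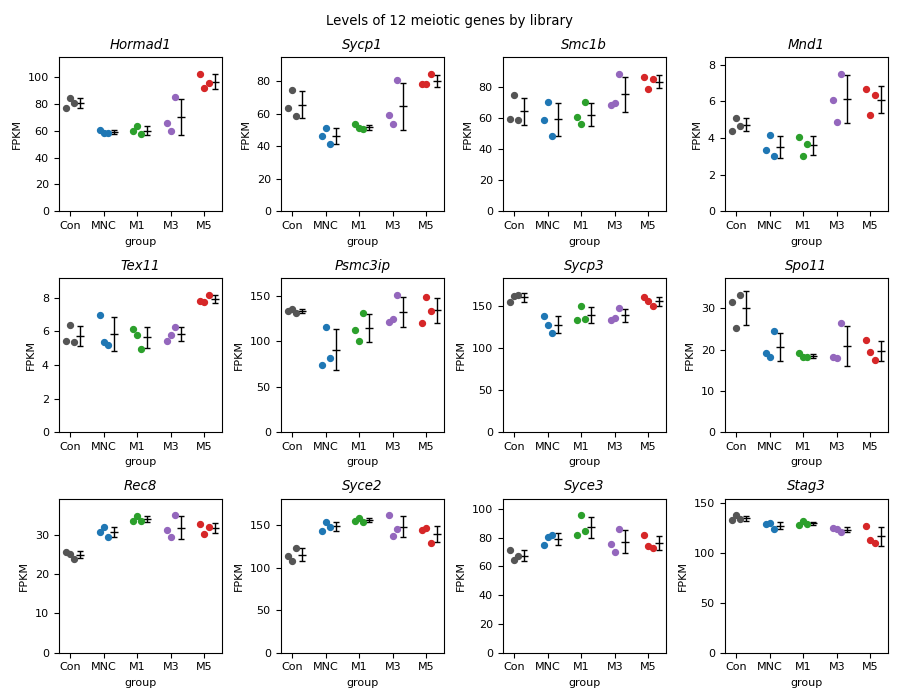
Levels in FPKM (vertical axes, from 0) of 12 meiotic genes in the 5 groups (horizontal axes). Each point is 1 library in the order of its replicate number, and the black bar to the right of each group is the mean with the SD of 3 libraries. Hormad1 in the 3 M5 libraries lies between 91.3 and 102 FPKM, above each library of the other groups, and M3 replicate 3 is the highest M3 library in the panels of Hormad1, Sycp1, Smc1b and Mnd1.

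The promoters of 4 called genes are shown, to stand beside their values: Hormad1, Sycp1 and Smc1b, which were called higher in M5 than in M1, and Syce2, which was called higher in MNC than in Con. Each is the RefSeq sequence of the build GRCm38.p6 from 250 bases before to 50 bases after an annotated start, 5′ to 3′ on the strand of the gene. They lie at chr3:95559427-95559726 on the plus strand (Hormad1), chr3:102936051-102936350 on the minus strand (Sycp1), chr15:85131908-85132207 on the minus strand (Smc1b) and chr8:84872008-84872307 on the plus strand (Syce2). Capitals mark matches to the E-box CACGTG, to the motif CNCCTCAG reported for STRA8 and MEIOSIN, which switch on meiotic genes, and to the E2F site TTCCCGC, or to the reverse complement of these. Hormad1 and Syce2 had 2 such windows each, and the window with the most marked matches was chosen. Only genes with a motif match could be shown, so that these 4 hold matches was set by the choice. The promoter of Mnd1, also called higher in M5 than in M1, held none of the marked motifs and is not shown. The Syce2 window not shown, at chr8:84871861-84872160, held none of the marked motifs.
Hormad1: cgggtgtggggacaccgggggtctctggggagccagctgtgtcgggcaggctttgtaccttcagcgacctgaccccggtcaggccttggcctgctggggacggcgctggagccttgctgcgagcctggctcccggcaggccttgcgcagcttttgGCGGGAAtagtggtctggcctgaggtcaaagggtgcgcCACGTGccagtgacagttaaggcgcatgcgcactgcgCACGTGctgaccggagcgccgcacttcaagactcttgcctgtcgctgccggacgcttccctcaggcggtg
Sycp1: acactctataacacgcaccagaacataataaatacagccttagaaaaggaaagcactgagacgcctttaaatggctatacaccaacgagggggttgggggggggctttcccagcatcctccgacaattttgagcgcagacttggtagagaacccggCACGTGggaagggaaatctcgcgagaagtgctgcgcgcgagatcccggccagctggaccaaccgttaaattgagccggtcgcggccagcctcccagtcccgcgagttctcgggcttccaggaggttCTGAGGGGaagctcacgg
Smc1b: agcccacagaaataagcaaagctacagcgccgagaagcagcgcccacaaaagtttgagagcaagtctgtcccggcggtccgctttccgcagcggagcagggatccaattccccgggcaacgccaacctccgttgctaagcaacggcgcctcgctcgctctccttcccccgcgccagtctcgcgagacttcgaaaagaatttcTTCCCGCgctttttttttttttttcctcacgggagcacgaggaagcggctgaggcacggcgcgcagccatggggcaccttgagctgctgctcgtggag
Syce2: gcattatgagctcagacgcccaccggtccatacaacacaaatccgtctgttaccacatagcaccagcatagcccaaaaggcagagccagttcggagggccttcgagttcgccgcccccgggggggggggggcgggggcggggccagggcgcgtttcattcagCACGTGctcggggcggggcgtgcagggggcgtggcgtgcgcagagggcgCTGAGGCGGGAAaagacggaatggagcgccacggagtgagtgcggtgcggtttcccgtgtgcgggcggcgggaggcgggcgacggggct
The Hormad1 promoter held 1 E2F match and 2 E-boxes, that of Sycp1 1 E-box and 1 match to the STRA8 motif, that of Smc1b 1 E2F match alone, and that of Syce2 1 E-box followed by a STRA8 match that overlaps an E2F match.

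Promoters were given for 30 of the 38 genes, and both strands were searched. The E2F site was in 11 of the 30 (36.7%), against 5.29% of the 27025 genes with a promoter in the table. E-boxes were in 7 (23.3%, against 8.09%) and the STRA8 motif in 8 (26.7%, against 9.12%). The motif AACNGNC, the core of the MYB family that includes MYBL1 of spermatocytes, was in 17 (56.7%, against 36.0%), and the CCAAT box, CCAAT, in 16 (53.3%, against 41.1%). The full cAMP response element TGACGTCA was in none of the 30, against 2.03% of all genes. A gene counted when any of its listed starts held the letters. These are letter matches and say nothing of which factor binds there.

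The next comparisons asked whether knockdown of M1 or M3, receptors that signal through the same class of G protein as M5, did the same. No meiotic gene was called between M1 and MNC, where 0.0% of all genes were called, and 2 of the 37 had an unadjusted p under 0.05, as did 862 of all 14514 genes. The 3 genes of lowest p were Meikin, whose product protects cohesin at the centromere in the first division, Rec8, the meiotic kleisin of cohesin, and Dmc1. Meikin was at 8.06, 7.33 and 6.96 FPKM in MNC and 6.06, 6.41 and 6.26 in M1, a difference of -0.22 (SE 0.071, adjusted p = 0.819, limma). Rec8 differed by 0.14 (SE 0.049, adjusted p = 0.819, limma) and Dmc1 by -0.17 (SE 0.077, adjusted p = 0.819, limma). The median difference of the 37 genes was 0.010, against -0.018 over all genes.

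Between M3 and MNC no meiotic gene was called either, where 0.00689% of all genes were called. At an unadjusted p under 0.05 there were 3 of the 37 genes and 1369 of all 14514 genes. The 3 were Mnd1 with a difference of 0.65 (SE 0.16, adjusted p = 0.518), Psmc3ip with 0.56 (SE 0.18, adjusted p = 0.518) and Sycp1 with 0.45 (SE 0.16, adjusted p = 0.518), all from limma. Mnd1 was at 6.06, 4.85 and 7.50 FPKM in M3, Psmc3ip at 122, 124 and 152 and Sycp1 at 59.2, 53.7 and 81.2. M3 replicate 3 was the highest M3 library in each. Over the 37 genes, 4 were higher and none lower in every M3 library than in every MNC library, where 6.49% of all genes were higher and 10.6% lower. In M1 or M3 against MNC no meiotic gene was called with any 1 library left out. The comparisons of M1, M3 and M5 with MNC share the MNC libraries.

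The knockdowns were then set against each other, which tests whether M5 differed from M1 or M3. Against M1, 5 meiotic genes were higher in M5 and none was lower, where 3.23% of all genes were called higher and 3.52% lower. Hormad1 was at 59.4, 63.5 and 57.4 FPKM in M1 and differed by 0.67 (SE 0.063, adjusted p = 0.00692, limma). Sycp1 was at 53.5, 51.2 and 50.8 FPKM in M1 and differed by 0.62 (SE 0.053, adjusted p = 0.00548, limma). Mnd1 was at 4.06, 3.04 and 3.70 FPKM in M1 and differed by 0.63 (SE 0.13, adjusted p = 0.0415, limma). The other 2 were Tex11, at 6.17, 5.79 and 4.97 FPKM in M1 with a difference of 0.43 (SE 0.10, adjusted p = 0.05, limma; just under the threshold before rounding), and Smc1b, at 60.9, 56.0 and 70.1 FPKM in M1 with a difference of 0.42 (SE 0.090, adjusted p = 0.0444, limma). Each M5 library was above each M1 library in 15 of the 37 genes, against 18.8% of all genes.

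Mnd1, Tex11 and Smc1b were not called once any 1 of the 6 libraries was left out (adjusted p from 0.0529 to 0.166, limma). Sycp1 was called whichever library was left out, and Hormad1 in 5 of 6 cases, since without M1 replicate 1 its adjusted p was 0.0513 (limma). The count of called genes was 1 without M1 replicate 1, 2 without M1 replicate 2, M1 replicate 3, M5 replicate 1 or M5 replicate 2, and 4 without M5 replicate 3.

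Between M5 and M3 no meiotic gene was called, where 0.0138% of all genes were called. At an unadjusted p under 0.05 there were 3 of the 37 genes and 2077 of all 14514 genes. These were Tex11, which differed by 0.39 (SE 0.092, adjusted p = 0.338), Hormad1 by 0.47 (SE 0.13, adjusted p = 0.338) and Sycp3, the lateral element gene, by 0.16 (SE 0.068, adjusted p = 0.349), all from limma. Tex11 was at 5.44, 5.80 and 6.27 FPKM in M3, and each of these libraries was below each M5 library. Sycp3 was at 132, 136 and 147 FPKM in M3 and at 160.3, 155 and 149 in M5. Hormad1 was at 65.4, 59.4 and 85.0 FPKM in M3, and without M3 replicate 3 its difference was 0.62 and it was called (adjusted p = 0.0383, limma).

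**Figure D2:**
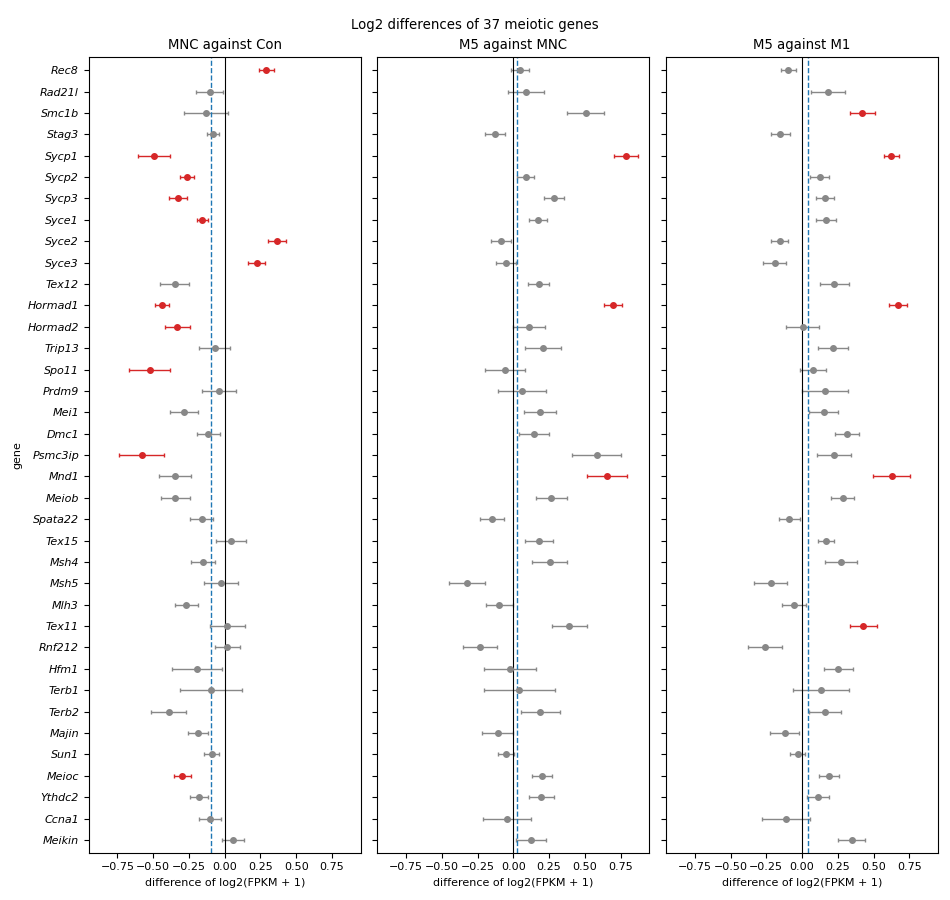
Differences of log2(FPKM + 1) (horizontal axes) for the 37 meiotic genes tested (vertical axis, by role) between MNC and Con, M5 and MNC, and M5 and M1. Points are differences of group means with the SE of limma, red points are genes called at an adjusted p under 0.05, and the dashed blue line is the median of all genes tested. The red points number 12 on the left, 3 in the middle and 5 on the right, and all those of the middle and right panels lie above 0.

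The comparison of MNC with Con asked what the vector and its injection changed, and takes in everything else in which the Con testes differed. Here more meiotic genes were called. In MNC against Con, 9 meiotic genes were lower and 3 higher, where 12.4% of all genes were called lower and 8.03% higher. The median difference of the 37 genes was -0.16, against -0.095 over all genes, and 30 of the 37 lay below 0. With every library centred on its median, the calls were 3 higher and 1 lower. The elongating spermatid markers moved with this comparison. Their summed levels were 11410 to 22090 FPKM in Con and 23320 to 29580 in MNC, with none of the 8 markers at 0 in any library, and their part in the result was not tested.

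Within the synaptonemal complex the genes did not move in 1 direction between MNC and Con. Sycp1 fell from 65.7 ± 8.35 to 46.4 ± 4.75 FPKM, a difference of -0.49 (SE 0.11, adjusted p = 0.0339, limma). The lateral element genes Sycp2 and Sycp3 were lower with differences of -0.26 (SE 0.050, adjusted p = 0.0256) and -0.33 (SE 0.065, adjusted p = 0.0269) by limma. Sycp2 was at 88.5, 97.2 and 94.4 FPKM in Con and 79.5, 75.8 and 77.4 in MNC, and Sycp3 at 154, 162 and 163 and 137, 127 and 118. Of the central element genes, Syce1 was lower with a difference of -0.16 (SE 0.037, adjusted p = 0.0355), while Syce2 and Syce3 were higher with 0.36 (SE 0.061, adjusted p = 0.0212) and 0.22 (SE 0.060, adjusted p = 0.0456), all from limma. Syce1 was the most abundant of the 38 genes, at 199.6, 204 and 203 FPKM in Con and 183, 181 and 181 in MNC. Syce2 was at 114, 109 and 124 FPKM in Con and 143, 154 and 149 in MNC, so that no library of Con reached MNC. Syce3 was at 71.3, 64.2 and 67.2 FPKM in Con and 74.7, 80.3 and 82.2 in MNC. Tex12, the partner of SYCE2 in the central element, was at 21.3 ± 2.83 FPKM in Con and 16.4 ± 1.10 in MNC and was not called.

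Outside the complex, both HORMA domain genes were lower in MNC than in Con. Hormad1 was at 77.1, 84.1 and 80.2 FPKM in Con, with a difference of -0.44 (SE 0.049, adjusted p = 0.0158, limma). Hormad2, the marker of unsynapsed axes, was at 10.7, 12.5 and 11.8 FPKM in Con and 9.57, 9.48 and 8.19 in MNC, a difference of -0.33 (SE 0.086, adjusted p = 0.0433, limma). Trip13, whose product strips HORMAD proteins from synapsed axes, was at 4.86 ± 0.207 FPKM in Con and 4.62 ± 0.769 in MNC. Spo11, which makes the breaks, was at 31.4, 25.3 and 33.3 FPKM in Con and 19.1, 18.3 and 24.5 in MNC, lower with a difference of -0.52 (SE 0.14, adjusted p = 0.048, limma). Psmc3ip was at 134, 135 and 131 FPKM in Con and at the widely spread MNC levels given above, a difference of -0.58 (SE 0.16, adjusted p = 0.0496, limma). Meioc, which with Ythdc2 keeps germ cells in meiosis, was at 43.7, 48.0 and 46.9 FPKM in Con and 37.6, 35.6 and 39.3 in MNC, a difference of -0.29 (SE 0.060, adjusted p = 0.0274, limma). Rec8 went the other way, at 25.6, 25.2 and 23.9 FPKM in Con and 30.6, 32.1 and 29.4 in MNC, a difference of 0.29 (SE 0.055, adjusted p = 0.0254, limma).

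Over the 37 genes, 3 were higher and 19 lower in every MNC library than in every Con library, where 2172 of all 14514 genes were higher and 4577 (31.5%) lower. Of the 12 calls none was left without Con replicate 1, while 1 (Hormad1) was left without Con replicate 2. Leaving out Con replicate 3 gave 3 calls. Leaving out an MNC library gave 9 calls for replicate 1, 2 for replicate 2 and 5 for replicate 3.

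Markers of other cells moved with the same comparison, and 7 of 10 marker lists had summed levels that did not overlap between MNC and Con. Lower in MNC were the markers of peritubular cells, at 25.01 to 27.5 FPKM against 34.7 to 36.8 in Con, of Sertoli cells, at 80.2 to 90.0 against 96.6 to 114, of spermatogonia, at 58.0 to 63.6 against 64.5 to 70.3, and of pachytene spermatocytes. Of the spermatogonial sum 48.5% came from Uchl1. The median deviation of the spermatogonial markers from their mean over the libraries, in log2(FPKM + 1), overlapped. It was -0.011 to 0.151 in MNC and 0.003 to 0.195 in Con. Higher in MNC were the markers of macrophages, at 60.1 to 114 FPKM against 42.6 to 52.0 in Con, and of round and elongating spermatids. The part of these cells in the 12 calls was not tested.

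The injected groups were each compared with Con, and these comparisons share the 3 Con libraries. In M1 against Con, 12 meiotic genes were lower and 3 higher, where 23.9% of all genes were called lower and 10.3% higher. With centring on the median the calls were 3 higher and 4 lower, and the median of all genes was itself at -0.12. The higher genes were Rec8 with 0.43 (SE 0.045, adjusted p = 0.00698), Syce2 with 0.43 (SE 0.054, adjusted p = 0.00865) and Syce3 with 0.36 (SE 0.072, adjusted p = 0.0156), by limma. Rec8 was at 33.5, 34.8 and 33.4 FPKM in M1, Syce2 at 155, 159 and 154 and Syce3 at 81.5, 95.7 and 84.8. Over the 37 genes, 3 were higher and 23 lower in every M1 library than in every Con library, where 15.1% of all genes were higher and 38.6% lower. Spo11 had the largest fall, to 19.1, 18.2 and 18.3 FPKM in M1, with -0.66 (SE 0.10, adjusted p = 0.0104, limma).

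The other 11 genes lower in M1 than in Con belonged to every role except cohesin and break formation. The crossover helicase gene Hfm1 stood at 7.77, 7.93 and 7.47 FPKM in Con and 4.83, 6.02 and 5.08 in M1, lower with a difference of -0.47 (SE 0.082, adjusted p = 0.0124), and Mlh3, whose product cuts crossover joints, was lower with a difference of -0.31 (SE 0.063, adjusted p = 0.0167), both by limma. Hormad1 was lower with a difference of -0.42 (SE 0.054, adjusted p = 0.00884, limma). Terb2, which ties telomeres to the nuclear envelope, was at 4.96, 4.71 and 5.18 FPKM in Con and 3.64, 4.15 and 3.12 in M1, lower with a difference of -0.36 (SE 0.10, adjusted p = 0.0295, limma). Meiob, a single-strand DNA binding protein of repair, was at 14.9, 15.7 and 16.0 FPKM in Con and 12.1, 12.7 and 10.9 in M1, lower with a difference of -0.36 (SE 0.065, adjusted p = 0.0134, limma). Dmc1 was at 7.08, 7.70 and 7.46 FPKM in Con and 5.96, 5.84 and 5.96 in M1, lower with a difference of -0.28 (SE 0.055, adjusted p = 0.0154, limma). The remaining 5 were Sycp1 with -0.33 (adjusted p = 0.0333), Sycp2 with -0.30 (adjusted p = 0.0162), Sycp3 with -0.20 (adjusted p = 0.0401), Syce1 with -0.15 (adjusted p = 0.0446) and Meioc with -0.28 (adjusted p = 0.0225), by limma. Sycp2 was at 74.8, 80.8 and 71.5 FPKM in M1, Sycp3 at 132, 150.0 and 134, Syce1 at 188, 173 and 186 and Meioc at 37.3, 40.9 and 35.4. The count was 8 without Con replicate 1 and 7 without M1 replicate 1, and between 7 and 15 over all 6 libraries left out in turn.

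In M5 against Con, 5 meiotic genes were higher and 2 lower, where 9.32% of all genes were called higher and 12.3% lower. With centring the calls were 4 higher and none lower, and with quantile normalization 3 and 3. Tex11 was at 5.45, 6.39 and 5.35 FPKM in Con and higher by 0.41 (SE 0.092, adjusted p = 0.0253), and Smc1b, at 59.7, 74.7 and 58.9 FPKM in Con, was higher by 0.38 (SE 0.10, adjusted p = 0.0416), both by limma. Rec8 was at 32.8, 30.3 and 32.0 FPKM in M5, with 0.34 (SE 0.059, adjusted p = 0.0126), and Syce2 at 145, 147 and 129, with 0.28 (SE 0.075, adjusted p = 0.0426), both by limma. Hormad1 was higher in M5 than in Con by 0.25 (SE 0.063, adjusted p = 0.0333, limma), but it was called in 1 of the 6 fits that left out a library (without M5 replicate 3), and with the trend over GC content removed the difference was 0.14 (adjusted p = 0.178, limma). Spo11 was at 22.2, 19.4 and 17.4 FPKM in M5, lower with a difference of -0.58 (SE 0.13, adjusted p = 0.0235), and Mlh3 was at 10.1, 10.1 and 10.9 FPKM in Con and 8.19, 7.94 and 7.37 in M5, lower with a difference of -0.36 (SE 0.078, adjusted p = 0.0214), both by limma. Over the 37 genes, 10 were higher and 10 lower in every M5 library than in every Con library, where 17.9% of all genes were higher and 24.3% lower. Sycp1 at 80.4 ± 3.68 FPKM in M5 and 65.7 ± 8.35 in Con was not called. No gene was called without Con replicate 1, and there were 5 calls without Con replicate 2, 1 without Con replicate 3, 4 without M5 replicate 1, 1 without M5 replicate 2 and 11 without M5 replicate 3.

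In M3 against Con, 2 meiotic genes were higher and 3 lower, where 7.01% of all genes were called higher and 15.1% lower. With centring the calls were 2 higher and none lower, and with quantile normalization 1 and 3. Syce2 was at 162, 138 and 146 FPKM in M3, with 0.36 (SE 0.081, adjusted p = 0.0326), and Rec8 at 31.2, 29.4 and 35.0, with 0.34 (SE 0.077, adjusted p = 0.0327), both by limma. Mlh3 was at 8.55, 8.26 and 7.33 FPKM in M3, with -0.33 (SE 0.078, adjusted p = 0.034), Terb2 at 3.63, 3.59 and 3.99, with -0.33 (SE 0.076, adjusted p = 0.0334), and Hfm1 at 5.94, 5.87 and 6.12, with -0.32 (SE 0.063, adjusted p = 0.0283), all by limma. Over the 37 genes, 2 were higher and 15 lower in every M3 library than in every Con library, where 12.8% of all genes were higher and 36.6% lower. Spo11 was at 18.2, 18.1 and 26.4 FPKM in M3, where replicate 3 alone reached the Con levels, and was not called. None of the 5 calls was left without Con replicate 1, Con replicate 2, Con replicate 3 or M3 replicate 1, there were 3 without M3 replicate 2, and 7 without M3 replicate 3.

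**Figure D3:**
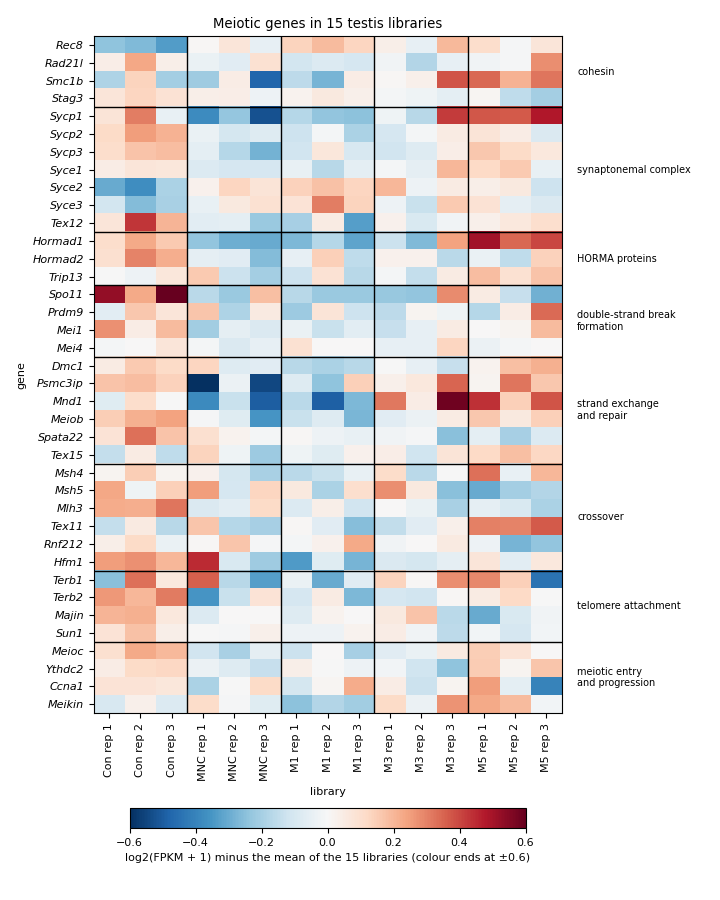
Colour map of the 38 meiotic genes (rows, by role) in the 15 libraries (columns, by group). Colour is log2(FPKM + 1) minus the mean of that gene over the 15 libraries, red above and blue below, with the scale ending at ±0.6. Sycp1 and Hormad1 are red in M5 and in M3 replicate 3 and blue in MNC and M1, while Rec8 and Syce2 are blue in Con. Sycp1 and Hormad1 are also red in Con replicates 1 and 2, and Hormad1 in Con replicate 3.

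Levels ranged widely among the 38 genes. The most abundant, Syce1, had a mean of 194 FPKM over the 15 libraries, while the highest gene of crossover formation, Mlh3, had 8.58 FPKM. Among the cohesin genes Stag3, the meiotic SA subunit, was highest. It was at 133, 138 and 134 FPKM in Con, 129.5, 130.0 and 124 in MNC, 128, 132 and 129 in M1, 126, 124 and 121 in M3 and 128, 114 and 109.8 in M5. Each Con library was above each library of the injected groups, and no comparison called Stag3 in the main fit. In M5 against Con it was called with quantile normalization, with all 5 groups in one fit and without M5 replicate 1. With quantile normalization it was also called in M1 and in M3 against Con. Rad21l, another meiotic kleisin, was at 1.26 to 2.09 FPKM in all libraries. Ccna1, the cyclin of late spermatocytes, was at 76.8, 76.9 and 76.1 FPKM in Con, 63.4, 72.5 and 78.7 in MNC, 67.4, 73.3 and 84.7 in M1, 75.0, 66.2 and 73.3 in M3 and 86.5, 69.6 and 54.6 in M5. The M5 libraries of Ccna1 spanned the range of all the others. Sun1, which links telomeres to the cytoskeleton across the nuclear envelope, was at 35.0 to 38.6 FPKM in Con and at 30.4 to 35.2 FPKM in the injected groups, with no call.

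The central element gene Syce1 was at 192, 186 and 222 FPKM in M3 and 211, 216 and 188 in M5, and Psmc3ip at 113, 101 and 132 in M1. Mlh3 was at 7.98, 8.11 and 9.32 FPKM in MNC and 8.02, 8.76 and 7.81 in M1. Of the genes of break formation, Prdm9, which marks the sites, was at 1.93 to 3.32 FPKM and Mei1 at 1.33 to 2.26 FPKM. Mei4 differed by between -0.068 and 0.080 in the 9 comparisons, with exact permutation p-values from 0.1 to 1.0 (two-sided), and 0.1 is the smallest p that 3 libraries against 3 allow. The crossover genes Msh4 and Msh5, which form a clamp on the joints, were at 7.06 to 10.6 and 2.84 to 4.75 FPKM. Within groups the median coefficient of variation of the 37 genes lay between 5.62% in Con and 8.94% in MNC, against 7.09% and 9.12% for all genes tested, and it was 6.25% in M5, against 11.6%. Hfm1 in MNC varied by 29.5%, with replicate 1 at 9.08 FPKM and the others at 5.93 and 5.36.

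A list of 59 other meiotic genes was read beside the 38, with a median difference of 0.047 in M5 against MNC. Smc3, a cohesin subunit of all cells, was higher in M5, at 27.4 against 21.4 FPKM, a difference of 0.34 (adjusted p = 0.0374, limma). Mdc1, a reader of damaged chromatin, was lower in M5, at 24.5 against 38.0 FPKM, a difference of -0.61 (adjusted p = 0.0101, limma). Prr19, a crossover factor, was lower at 35.5 against 47.6 FPKM, a difference of -0.41 (adjusted p = 0.0391, limma), and the kinase gene Cdk2 at 24.9 against 31.3 FPKM, a difference of -0.32 (adjusted p = 0.0443, limma). In M5 against M1, Smc3 was higher and Cdk2 lower. No gene of this list was called in M1 or M3 against MNC or in M5 against M3, where 2, 7 and 4 of the 59 had an unadjusted p under 0.05 by limma. Of all 14514 genes, 862, 1369 and 2077 did.

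Against Con, 17 of the 59 were lower in MNC and none higher, 21 were lower in M1, 12 in M3 and 7 in M5, where 12.4%, 23.9%, 15.1% and 12.3% of all genes were called lower. M1ap, needed for meiosis in males, was the only one called higher, in M1, M3 and M5. The median difference of the list in MNC against Con was -0.17, beside -0.16 for the 37 genes.

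Base composition moved with the differences in some of the comparisons. The transcripts of the 37 genes had a median GC content of 44.1%, with a range of 34.3% to 56.7%, against 49.4% over the 13364 genes tested with a known value. In M5 against MNC, Spearman's rho between GC content and the difference was -0.453 over those genes and -0.472 over the 37, a description across genes that share the same 6 libraries. The fifth of all genes with the lowest GC had a median difference of 0.17 and the fifth with the highest -0.14. Sycp1 has a GC content of 34.6% and Hormad1 of 35.8%. With the trend over all genes removed, the median of the 37 was -0.0040, and Sycp1 and Hormad1 were still called, with differences of 0.54 and 0.47 (adjusted p = 0.0425 for both, limma). In MNC against Con, rho was 0.117 over all genes and 0.44 over the 37, and the 3 higher genes have GC contents of 49.3% (Syce2), 52.9% (Syce3) and 56.7% (Rec8). All 3 were still called with the GC trend removed. In M1 against Con, rho was -0.002 over all genes and 0.497 over the 37.

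**Figure D4:**
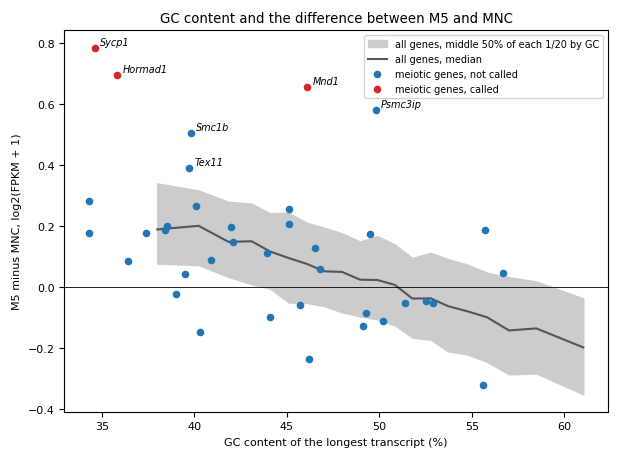
Difference between M5 and MNC in log2(FPKM + 1) (vertical axis) against GC content of the longest transcript in percent (horizontal axis). The line and grey band are the median and the range from the first to the third quartile of all genes, in bins of equal size by GC, and points are the 37 meiotic genes, red where called. The line falls from low to high GC, and Sycp1 and Hormad1 at the left lie above the band.

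Markers of germ cell stages moved with the groups as well. The 8 markers of pachytene spermatocytes summed to 2755 to 3122 FPKM in M5, below each library of MNC (3521 to 3750) and of Con (3903 to 3912), while the 38 meiotic genes summed to 1478 to 1597 FPKM in M5, 1314 to 1393 in MNC and 1480 to 1550 in Con. Of the pachytene sum 75.0% came from Ldhc, a lactate dehydrogenase gene of germ cells, at 1959 to 2263 FPKM in M5 and 2704 to 2859 in MNC. The median deviation of the 8 markers overlapped between these groups, from -0.29 to -0.003 in M5 and from -0.106 to -0.008 in MNC. The 8 round spermatid markers summed to 914 to 991 FPKM in Con and to 1049 to 1230 in the injected groups. In M5 they summed to 1049 to 1093 FPKM, below each MNC library (1096 to 1155). Their median deviation overlapped, from -0.042 to 0.081 in M5 and from 0.027 to 0.099 in MNC. Of 10 marker lists, 3 had sums that did not overlap between M5 and MNC, where 16.6% of all single genes tested were higher and 15.5% lower without overlap. Red blood cell markers were higher in M5, and pachytene and round spermatid markers were lower. Markers of spermatogonia summed to 49.1 to 65.1 FPKM in M5 and 58.0 to 63.6 in MNC. Of somatic cells, the 9 Sertoli cell markers summed to 81.6 to 139 FPKM in M5 and 80.2 to 90.0 in MNC, and the 5 red blood cell markers to 148 to 491 FPKM in M5 and 21.8 to 35.3 in MNC, with 3 of these 5 at 0 in at least 1 of the 15 libraries. The part of these cells in the differences of the meiotic genes was not tested.

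**Figure D5:**
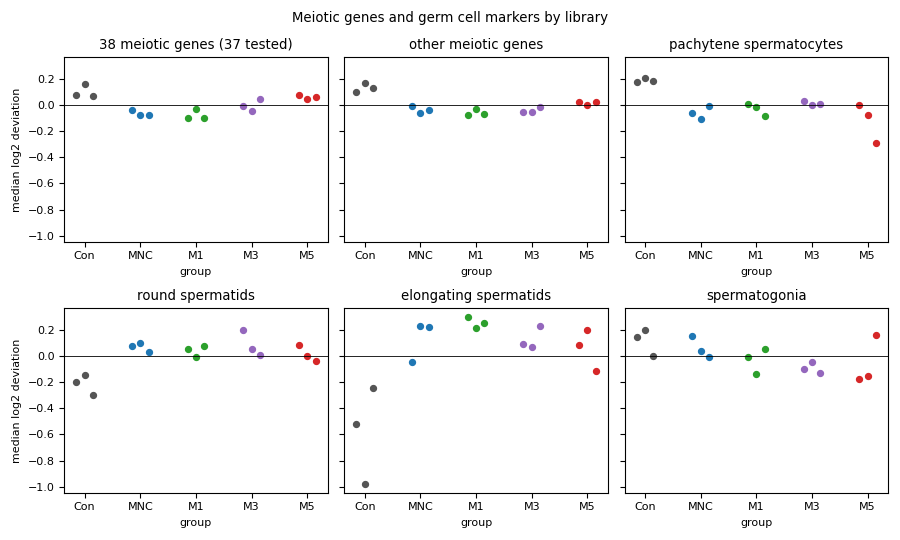
Median deviation of log2(FPKM + 1) from the mean of the 15 libraries (vertical axes) over 6 gene lists, by group (horizontal axes). Each point is 1 library. The 38 meiotic genes (37 tested) are above 0 in Con and M5 and below 0 in MNC and M1, while pachytene markers are above 0 in Con and at or below 0.033 in the other groups, and round and elongating spermatid markers are lowest in Con.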

How the data were processed

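RNA of mouse testis was sequenced in 15 libraries, 3 in each of the groups Con, MNC, M1, M3 and M5. Groups and replicate numbers came from the sample titles. The description of the library titled M5-2 names M5-1, and it was mapped by its title. The titles name testis, and the extraction protocol mentions sperm samples. Per the study's methods, reads from an Illumina HiSeq instrument were mapped to reference genes with SOAPaligner, and the submitters' processing notes name the build mm10. The authors deposited 1 table of FPKM values, given to 2 decimals, for 23510 gene IDs, of which 21143 were matched to symbols through a RefSeq gene table of GRCm38.p6. All 15 columns were used. No counts were used, so the depth is unknown.

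Values were analysed as log2(FPKM + 1), with a minimum mean of 1 FPKM over the 15 libraries (14514 genes). Since FPKM values do not suit the count model of the study's methods, limma 3.58.1 in R 4.3.3 (lmFit, and eBayes with trend) was fitted to the 2 groups of each comparison, two-sided, with Benjamini-Hochberg adjustment over all genes tested. Mei4, below the filter, was tested by exact permutation. The procedure was tested on simulated data in which genes varied independently and the changes were of 1 log2 unit. The differences of the meiotic genes were smaller, so that test does not cover them. The 38 genes and all gene lists were chosen with earlier results of these data known. Differences and tests are given for the genes called in a comparison and, where fewer than 3 were called, for the 3 of lowest p. Values in every library are given for these and for the most abundant gene of each role. Of 61 other meiotic genes listed, 59 were matched, and Stra8 and Mybl1 stand in a marker list too. Alternatives were a pseudocount of 0.1, no filter, a filter of 5 FPKM, centring on the median, quantile normalization, all 5 groups in one fit, eBayes without trend, the replicate number as a block, the threshold of the study (adjusted p of 0.001 and log2 difference of 1), and leaving out each library. Removal of the trend with GC content, known for 92.1% of genes tested, was chosen after seeing the data. Tables were handled in Python 3.11.15 (numpy 2.4.6, pandas 2.3.3).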

Additional observations from a re-analysis of the deposited data

Results flagged for a closer look

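5 values are singled out because the effects of 2 knockdowns, M5 and M1, differed by a direct test between these groups (limma). M5 minus M1 in log2(FPKM + 1) was 0.67 for Hormad1, 0.63 for Mnd1, 0.62 for Sycp1, 0.43 for Tex11 and 0.42 for Smc1b. Each was higher in 3 of 3 M5 libraries than in any M1 library, and those of Mnd1, Tex11 and Smc1b were lost whichever library was left out. Markers moved with them, and 2 of 10 marker lists had summed levels that did not overlap. Red blood cell markers summed to 148 to 491 FPKM in M5 and 27.1 to 79.3 in M1. Pachytene markers summed to 2755 to 3122 FPKM in M5 and 3540 to 3661 in M1, of which most was Ldhc, while their median deviation overlapped, from -0.29 to -0.003 in M5 and from -0.087 to 0.004 in M1. The part of these cells was not tested. With 3 libraries a group, no library was tested for standing apart.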

How the results depend on the processing

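Alternatives moved the counts of called meiotic genes more than their directions. Over named genes and settings, 538 values kept their direction and their side of the threshold, 351 lost the call, 1 gained it and 1 reversed. The 538 include values of genes not called in the main fit, which had no call to lose. The threshold of the study left 0 calls in all comparisons. In M5 against MNC the 3 calls became 7 with all 5 groups in one fit and ranged from 1 to 3 with a library left out. In MNC against Con the 12 became 6 without a filter, 4 with centring, 8 without trend and 6 with the GC trend removed, and ranged from 0 to 9 with a library left out. In M5 against Con the 7 became 3 without a filter and 4 with centring, and ranged from 0 to 11. In M1 against Con the 15 became 7 with centring and ranged from 7 to 15. In M3 against Con the 5 became 1 without a filter, 2 with centring, 10 with all groups in one fit and 3 with the GC trend removed, and ranged from 0 to 7. In M5 against M1 the 5 became 2 without a filter, with centring, without trend or with the GC trend removed, and 3 with quantile normalization, and ranged from 1 to 4. In M5 against M3 the 0 became 1 without M3 replicate 3. With the replicate number as a block, 14 genes were called in M1 against Con and 0 in each of the other 8 comparisons. Whether same-numbered libraries were paired was not tested. No comparison had all 3 correlations of their deviations over 0.1 (M5 with MNC 0.102, 0.177 and -0.052, M1 with Con 0.083, 0.193 and 0.077).

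The split of calls into higher and lower against Con moved with scaling, to 3 and 3 for MNC, 3 and 5 for M5, 3 and 7 for M1 and 2 and 1 for M3 with the GC trend removed. The median over the 37 genes changed sign with centring in M5 against Con (to 0.010), M3 against Con (to 0.029) and M5 against M3 (to -0.069), and with the GC trend removed in M5 against MNC (to -0.0040), M5 against M1 (to -0.010) and M5 against M3 (to -0.038), while quantile normalization gave -0.0040 in the last. Sycp3 in M5 against M3, not called, reversed to -0.013 with the GC trend removed. Sycp1 and Hormad1 in M5 against MNC kept their calls under each alternative except the block (adjusted p = 0.0766 and 0.0674), the threshold of the study and, for Sycp1, leaving out M5 replicate 2. The causes of these changes were not tested. The unknown depth leaves the precision of low genes such as Mei4 and Rad21l unstated.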
